A study of Drosophila melanogaster with 2 samples.

Results

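The genes described here build and run the contractile apparatus of muscle. The list named 35 genes of Drosophila melanogaster, and its members on the array were the probe sets whose only gene symbol in the platform annotation is one of those names. That gave 46 of the 14010 probe sets and 29 of 10843 genes. Of these genes 28 matched by symbol, and Unc-89, the obscurin gene, was found under its current symbol Obsc. Mhc, wupA, Tm1, TpnC47D, TpnC25D and Mef2 had no probe set named for them in the annotation and were not analysed here. The genes were split into 5 flight muscle genes, namely fln, TpnC4, TpnC41C, Zasp67 and Strn-Mlck, and 30 general muscle genes, of which 24 were on the array.

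The study set homozygous mbf1 mutants against yw animals, a control stock named for yellow, a gene of cuticle colour, and white, a gene of eye colour. MBF1, multiprotein bridging factor 1, helps DNA-bound transcription factors to recruit the TATA-binding protein. The labels describe both groups as whole embryos kept on apple juice plates at 25 °C for 16 h after laying, and they do not name the mbf1 allele or say whether the mutants share the alleles of the yw stock. Total RNA of each group was hybridised to 1 Affymetrix DrosGenome1 array. With 1 array per genotype there was no replicate error and no test, so every difference below is one between 2 arrays.

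A sarcomere is a lattice of thick filaments of myosin and thin filaments of actin, held between Z discs and kept in register by elastic proteins. Calcium released into the fibre binds troponin C on the thin filament, which moves tropomyosin and lets myosin pull. Body wall muscles of the larva form in the second part of embryogenesis. The indirect flight muscles form in the pupa, have stiff fibres that are activated by stretch, and use several proteins of their own, flightin among them.

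The overall brightness of the deposited arrays differed. The mbf1 array was therefore divided by 1.47, a shift of 0.55 on the log2 scale that centred the ratios of bright probe sets, and signals are given after that step. A signal under 17.7 was treated as not above a floor, and genes that passed it on 1 array or on both count as measured. By this rule 7675 genes were measured. A gene with several probe sets was read by the one of highest mean signal. The mbf1 gene itself read 478.7 in yw and 22.1 in the mutant. Brightness also depends on the probes, so signals of different genes do not rank their transcript levels. A ratio sets the same probe set on both arrays side by side.

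Of the 29 genes, 28 were measured, all of them above the floor on both arrays, and Zasp67 was under it on both. Most were lower on the mbf1 array relative to the bulk of genes: 23 of 28 log2 ratios were negative, against 50.2% of all measured genes. The median log2 ratio was -0.33, beside -0.0011 for all measured genes. At least 1.5-fold lower were 6 genes, fln, Mlp60A, TpnC4, Strn-Mlck, Mlc1 and tn, or 21.4% of the measured members against 7.71% of all measured genes. At least 2-fold lower were 3 of them, fln, Mlp60A and TpnC4, against a background of 1.62%. On the other side, sls was at least 1.5-fold higher, where the background was 7.45%, and none was at least 2-fold higher, where it was 1.51%.

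These directions are relative to the bulk of the array. In the values as deposited, 21 of the 28 genes had a higher number on the mbf1 array and 7 a lower one. The mbf1 array was brighter as a whole: the median log2 ratio of all measured genes was then 0.50, and 23 of the 28 lay under it. The split of genes at least 1.5-fold apart was then 2 lower and 4 higher, against 1.41% and 41.1% of all measured genes. With scaling on the hybridization controls, bacterial and phage transcripts added at hybridisation, it was 4 lower and 1 higher, against 3.41% and 15.7%. The genes lower in all 3 scalings were fln, TpnC4, Strn-Mlck, Mlp60A, Mlc1, tn and Obsc.

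**Figure D1:**
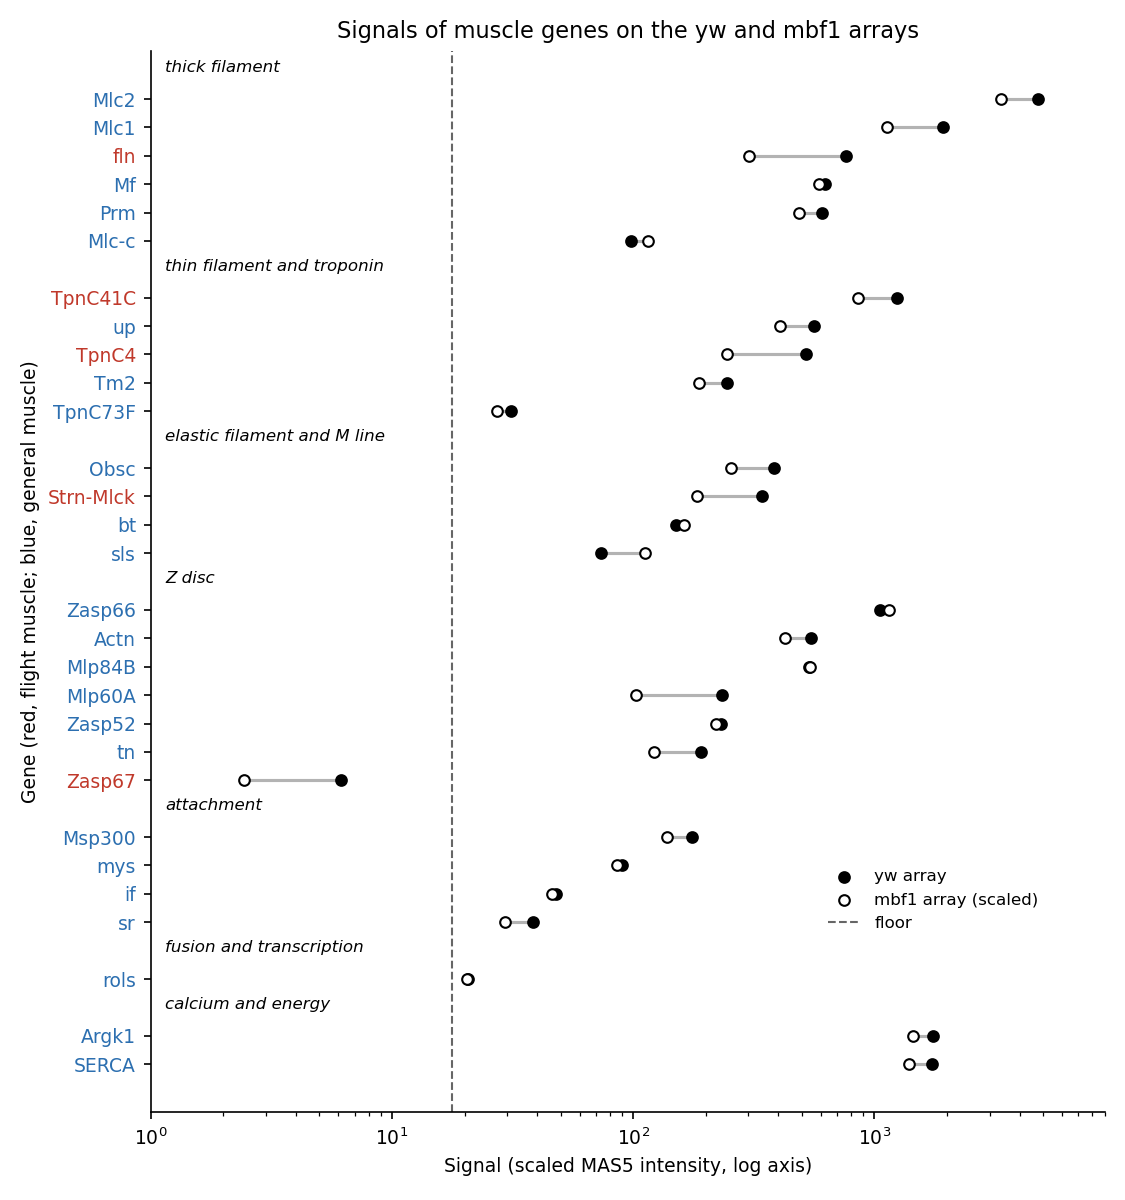
Scaled signals of the 29 muscle genes on a log axis, ordered by role, with the yw array as filled circles and the mbf1 array as open circles. The dashed line is the floor of 17.7. The widest gaps above it belong to fln, Mlp60A and TpnC4, while the signals of Mlp84B, rols, if and mys nearly coincide.

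The flight muscle genes had the larger differences. Their median log2 ratio was -0.99 over the 4 measured genes, beside -0.29 over the 24 general muscle genes. At least 1.5-fold lower were 3 of the 4 flight muscle genes and 3 of the 24 general ones. The general share, 12.5%, lies close to the 10.8% among the brightest decile of all measured genes, to which 11 of the 24 general genes and all 4 measured flight muscle genes belong. Under 1.5-fold either way were 20 of the 24 general genes. That is close to the shares among all measured genes, 6511 of 7675, and the brightest decile, 647 of 768. Negative were 19 of 24 ratios, or 79.2%, against 50.2% of all measured genes and 54.0% of the brightest decile. Among genes with a mean signal over 1000 the share was 77.8%. Only 6 of the 28 measured members are that bright, and the median yw signal of the general genes was 238. The direction is relative to the bulk. With scaling on hybridization controls, 17 of all 28 members were negative. The median of all genes was then 0.19, and 22 members lay under it, beside 23 under the all-gene median in the main setting. The difference between the flight and general medians was not tested.

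The gene fln encodes flightin, a thick filament protein of the indirect flight muscle that stiffens the filament. Its signal was 764.9 in yw and 302.7 in the mbf1 mutants. The log2 ratio was -1.34, or 2.53-fold lower, and 0.651% of all measured genes had a lower ratio. Its number was lower on the mbf1 array even before scaling, at 443.5.

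TpnC4 and TpnC41C encode troponin C proteins of adult thoracic muscle, with TpnC4 the main form of the stretch-activated flight muscle. TpnC4 had signals of 519.3 and 245.3, which gave a log2 ratio of -1.08 or 2.12-fold lower. TpnC41C, which is also used in the jump muscle, had signals of 1236 and 850.5, a ratio of -0.54. In the deposited values TpnC41C was at 1236 and 1246, so it was lower on the mbf1 array only relative to the bulk. Both genes were read by 1 probe set.

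Strn-Mlck encodes stretchin-Mlck, a giant immunoglobulin-domain protein related to myosin light chain kinases, with a flight muscle form on the thick filament. Its brightest probe set had signals of 343.1 and 183.7, which gave a log2 ratio of -0.90. A dimmer probe set of the same gene read 57.7 and 60.6, a ratio of 0.07, and a further one lay under the floor on both arrays. The probe sets thus disagreed by 0.97, which 7.69% of genes with several bright probe sets exceeded. Their mean of -0.42 was under 1.5-fold, and averaging left 2 of the 4 flight muscle genes at least 1.5-fold lower. The gene makes several transcripts, and which of them each probe set reads is not given in the sources used here.

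Zasp67, a small PDZ-domain protein of the flight muscle Z disc, had signals of 6.18 and 2.43. Both lie under the floor, so no ratio is given. Its signals were therefore of no use for comparing the genotypes, and the flight muscle median rests on the other 4 genes.

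**Figure D2:**
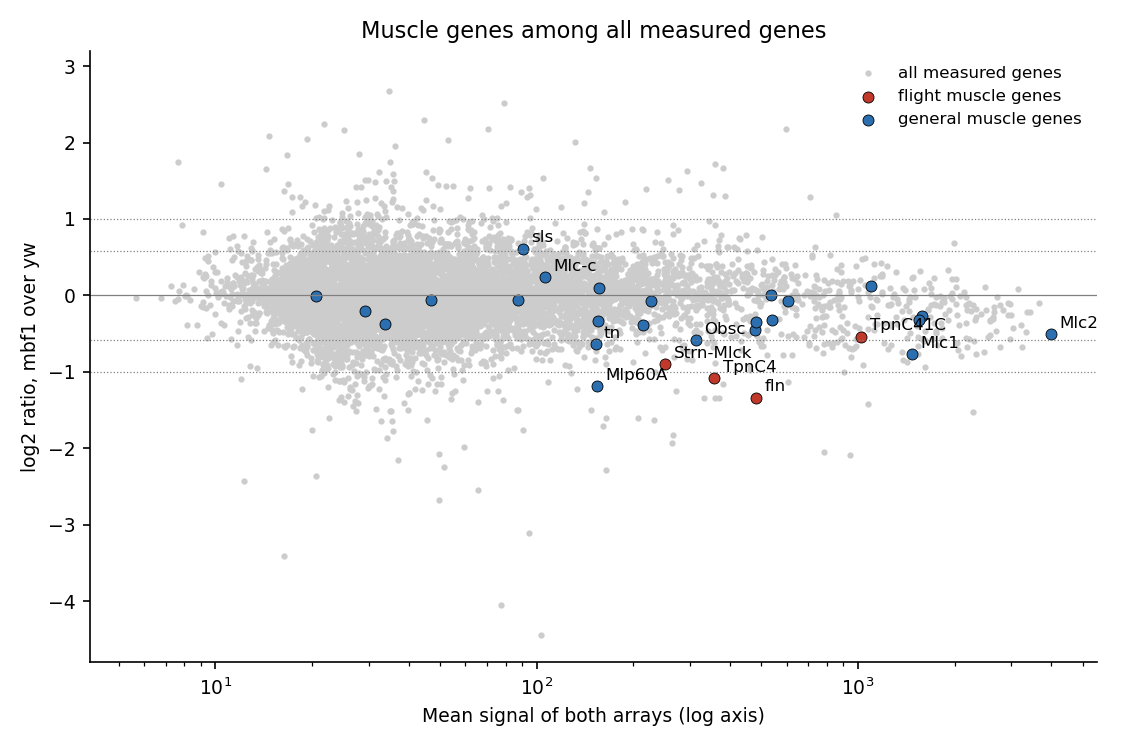
The log2 ratio of the mbf1 over the yw array against mean signal, on a log axis, for all measured genes in grey, general muscle genes in blue and flight muscle genes in red. Dotted lines mark 1.5-fold and 2-fold differences. The muscle genes lie mostly under 0, with fln, Mlp60A and TpnC4 under -1 and sls above the upper 1.5-fold line; the brightest grey points also lie mostly under 0.

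Among the other thick filament genes, both muscle myosin light chains were lower. Mlc1, the essential (alkali) light chain of muscle myosin, read 1931 in yw and 1131 in the mutants, a log2 ratio of -0.77 or 1.71-fold lower. Mlc2, the regulatory light chain, had 4762 and 3351, a ratio of -0.51. Prm, paramyosin, which forms the filament's core, had 603.3 and 484.8, a ratio of -0.32. Mf, myofilin, another core protein, differed little, with 621.3 and 588.9.

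The light chain gene that is not particular to muscle lay on the other side. Mlc-c encodes the essential light chain of cytoplasmic myosin, which works in cell division and cell shape. It had signals of 97.6 and 115.3, which gave a log2 ratio of 0.24. Without it the median of the general muscle genes was -0.32 instead of -0.29, a comparison chosen after seeing the data.

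The brightest genes of the array also leaned towards lower values on the mbf1 array, which bears on the light chains. Of the 176 genes with a mean signal over 1000, 137 (77.8%) had negative ratios and the median was -0.20, with 13.6% at least 1.5-fold lower. The members among them were Mlc1, Mlc2, TpnC41C, Argk1, SERCA and Zasp66, with a median of -0.42. A loess fit that removes such a trend with signal left Mlc1 at -0.62, TpnC41C at -0.43 and Mlc2 at -0.26. SERCA was then at -0.17, Argk1 at -0.12 and Zasp66 at 0.25. The fit left fln at -1.30, TpnC4 at -1.07 and Mlp60A at -1.21.

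All measured genes of the thin filament had negative ratios by their brightest probe set. The gene up encodes troponin T, which anchors the troponin complex to tropomyosin, and had signals of 559.6 and 407.8, which gave a log2 ratio of -0.46. A much dimmer probe set of up read 34.4 and 46.6, a ratio of 0.44, so the direction depended on the probe set. Tm2, a tropomyosin, had 244.3 and 186.7, a ratio of -0.39. The signals of TpnC73F, a troponin C of larval and other non-flight muscles, were 31.3 and 27.2, close to the floor, with a ratio of -0.20.

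The genes of elastic and M line proteins did not share a direction. Obsc (Unc-89) encodes obscurin, a giant kinase-domain protein of the M line, and had signals of 382.5 and 255.1. Its log2 ratio of -0.58 came just short of the 1.5-fold threshold, and a dimmer probe set gave 55.6 and 34.4, a ratio of -0.69. Both probe sets of Obsc above the floor therefore pointed the same way. By contrast bt, which encodes projectin, a titin-like protein that links thick filaments to the Z disc, had 151.0 and 161.7, a ratio of 0.10.

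The gene sls, which encodes the other titin-like protein of fly muscle with its short form kettin, had the highest ratio of the members. Its brightest probe set read 73.3 in yw and 112.1 in the mutants, a log2 ratio of 0.61 or 1.53-fold higher. A probe set of similar signal read 78.9 and 83.9, a ratio of 0.09. The gene's 2 remaining probe sets were under the floor on both arrays. The higher value of sls thus rested on 1 of 2 measured probe sets, and their mean of 0.35 was under 1.5-fold.

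The Z disc held the second lowest member and several that hardly differed. Mlp60A, a muscle LIM protein with 1 LIM domain, had signals of 232.6 and 102.3, which gave a log2 ratio of -1.18 or 2.27-fold lower. Its relative Mlp84B, which carries several LIM domains, had 535.1 and 538.1, a ratio of 0.01. The LIM protein genes, each read by 1 probe set, therefore parted, with a 2-fold difference in one and nearly equal signals in the other. In tn, which encodes thin, a TRIM protein needed to keep myofibrils intact, the signals were 190.5 and 122.1, a ratio of -0.64.

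Actn, the alpha-actinin that crosslinks thin filaments at the Z disc, had signals of 543.2 and 425.4, which gave a log2 ratio of -0.35. The Alp/Enigma family genes Zasp52 and Zasp66, whose PDZ-domain proteins bind alpha-actinin, lay near 0. Zasp66 had 1049 and 1146, a ratio of 0.13. The 3 probe sets of Zasp52 read 231.5 and 220.7, 205.3 and 169.1, and 161.0 and 135.2. Their ratios of -0.07, -0.28 and -0.25 were all slightly negative.

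**Figure D3:**
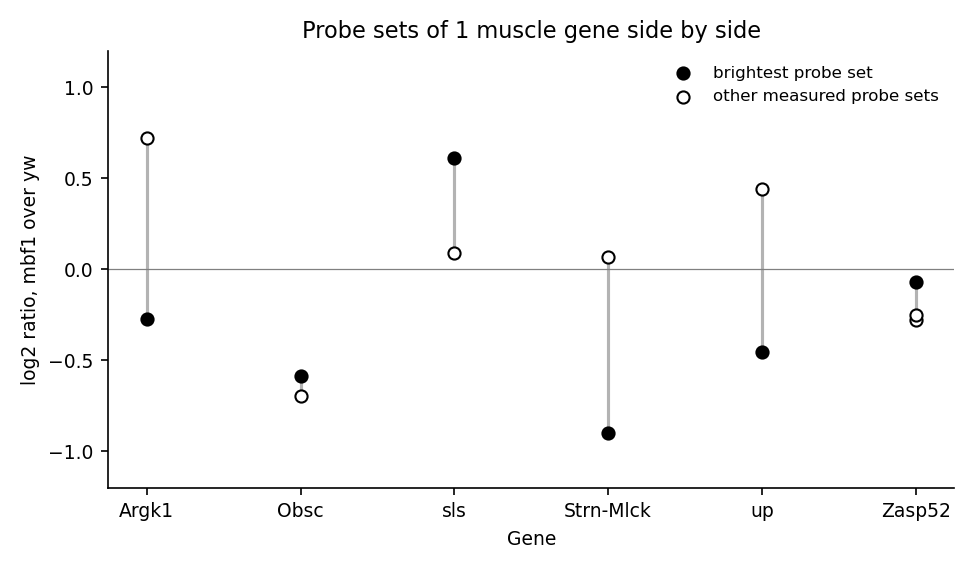
The log2 ratios of all measured probe sets of the 6 muscle genes with more than 1, with the brightest probe set of each gene filled and the others open. Probe sets of Obsc and Zasp52 lie on one side of 0, those of sls on the other, and those of Argk1, Strn-Mlck and up fall on both sides.

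The disagreement of probe sets sets a scale for these differences. Over 260 genes for which at least 2 probe sets passed the floor in both genotypes, pairs of probe sets gave 1 ratio an SD of 0.38 on the log2 scale, and 5% of pairs disagreed by more than 1.03. Both probe sets of a pair share the 2 arrays, so this SD leaves out the error between arrays and between samples. Among the members, 20 of 29 genes had only 1 probe set, fln, TpnC4, Mlp60A and Mlc1 among them.

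The 4 attachment genes had a median log2 ratio of -0.20, and 0 of them were at least 1.5-fold apart. Among all measured genes 7.71% were that much lower and 7.45% higher, so 0 of 4 does not stand out. The integrin subunits if (alphaPS2) and mys (betaPS), which anchor muscle ends to tendon cells, had signals of 48.0 and 46.0 and of 89.4 and 86.0. Both log2 ratios were -0.06. Msp300, a nesprin that positions muscle nuclei, had 174.5 and 138.0 in its bright probe set, a ratio of -0.34, and its 2 other probe sets were under the floor. The gene sr encodes stripe, the transcription factor of tendon cells, and had signals of 38.4 and 29.6, a ratio of -0.38. A scaffold protein of myoblast fusion is encoded by rols, whose brightest probe set read 20.7 and 20.6, barely above the floor, with 2 others under it.

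The genes of calcium return and energy supply were both slightly lower by their brightest probe sets. SERCA, the pump that returns calcium to the sarcoplasmic reticulum, read 1732 in yw and 1384 in the mutants, a log2 ratio of -0.32. Argk1, arginine kinase, which buffers ATP in muscle, had 1742 and 1443, a ratio of -0.27. A second probe set of Argk1 was under the floor in yw, at 6.90, and read 29.2 in the mutant, at least 1.65-fold higher. Its direction was opposite to that of the bright probe set.

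Other muscle genes, from lists that are not part of the 35, gave a mixed picture. Of 18 further sarcomere genes 15 were measured, 9 with negative ratios, and their median was -0.11. At least 1.5-fold lower were 3, or 20% against 7.71% of all measured genes and 13.6% of genes with a mean signal over 1000, and all of them were actins: Act88F, the actin of the flight muscle, at 1852 and 1031, a log2 ratio of -0.84, Act79B at -0.72 and Act87E at -0.66. The actins all had mean signals over 1000. None of the 15 was at least 1.5-fold higher, against 7.45% of all measured genes. Actin genes are close in sequence, and how far their probe sets read each other was not tested.

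Of 25 genes of myoblast fusion and attachment, 17 were measured, with a median log2 ratio of -0.10 and 11 negative ratios. At least 1.5-fold lower were 3, or 17.6% against 7.71% of all measured genes, and at least 1.5-fold higher none, against 7.45%. Tsp, thrombospondin, a tendon matrix protein that binds integrins, read 94.1 and 50.9, a ratio of -0.89. Lrt, a leucine-rich repeat protein of tendon cells, was at 31.5 in yw and under the floor in the mutant, at least 1.78-fold lower. The fusion gene blow had a ratio of -0.68.

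A list of 9 genes of flight muscle fuel use and identity held 3 measured genes. At least 1.5-fold lower were 0 of them, against 7.71% of all measured genes, and at least 1.5-fold higher was 1, against 7.45%. A list of 3 genes is too short to set against these shares. Gpdh1, the glycerol phosphate dehydrogenase of the flight muscle's energy shuttle, had signals of 239.5 and 266.9, which gave a log2 ratio of 0.16. The transcription factor gene salr was at 22.6, close to the floor, and 36.6, 1.62-fold higher, and ap, which encodes apterous, was at -0.35. Under the floor on both arrays were salm, whose product, spalt major, specifies the flight muscle fibre, and vg.

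Markers of other cell types are given as detected or not on each array, since both arrays are labelled as embryos. Their summed signals set the arrays side by side within a list and do not rank the lists. Of 9 embryonic myoblast genes 3 were above the floor in yw and 5 in the mutants, with summed signals of 151 and 184 and with twi, the mesoderm factor twist, the brightest at 36.9 and 46.1. Of 10 segmentation genes 5 and 7 were above the floor, with summed signals of 369 and 467, of which hry (hairy) gave 198.8 and 270.3, and en, Kr and gt were under the floor on both arrays. Here eve, which is in both lists, and kni, at 15.3 and 25.6, passed the floor only in the mutants.

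Most markers of adult organs were above the floor on both arrays. The labels describe embryos of 16 h, so these signals and the labels do not match. The age of the material was not tested. All 10 seminal fluid genes were measured, with summed signals of 9400 and 8266, the brightest being Acp95EF and SP, the sex peptide, and their median log2 ratio was -0.03. Of 13 testis genes 12 were measured, with summed signals of 13562 and 11997 and a median of -0.02, led by Mst84Dc and Mst84Da, and only can was under the floor on both arrays. In yw 9 of them were above the floor and in the mutants 11. ProtB, aly, mia and sa passed it on 1 array only, so their ratios, which enter the median, are bounds. The 6 photoreceptor genes with a probe set were all measured, with sums of 2665 and 2684 and a median of -0.04, led by Arr2 and Arr1. At least 1.5-fold lower were 0 genes of these lists, against 7.71% of all measured genes, and 1 testis gene, Mst77F, and 1 photoreceptor gene, trpl, were at least 1.5-fold higher, against 7.45%. With lists of 6 to 12 measured genes, neither count stands out from these shares.

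Fat body genes had summed signals of 1374 and 1319 with 5 of 7 measured, apolpp and Lsp2 being the brightest, and neuron genes 149 and 145 with 2 of 7 measured, Csp and nSyb. The median log2 ratio of the 5 fat body genes was 0.05, with 2 ratios negative and 3 positive. The storage protein gene Lsp2 was at 588.1 and 232.6, a log2 ratio of -1.34. The other way went apolpp, at 680.7 and 978.8, a ratio of 0.52. At least 2-fold lower was 1 of the 5, Lsp2, against 1.62% of all measured genes. No marker gene read a signal of exactly 0 on either array. The part of tissue makeup and age in the muscle ratios was not tested, and fewer muscle cells and less RNA per muscle cell cannot be told apart in RNA of whole animals.

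**Figure D4:**
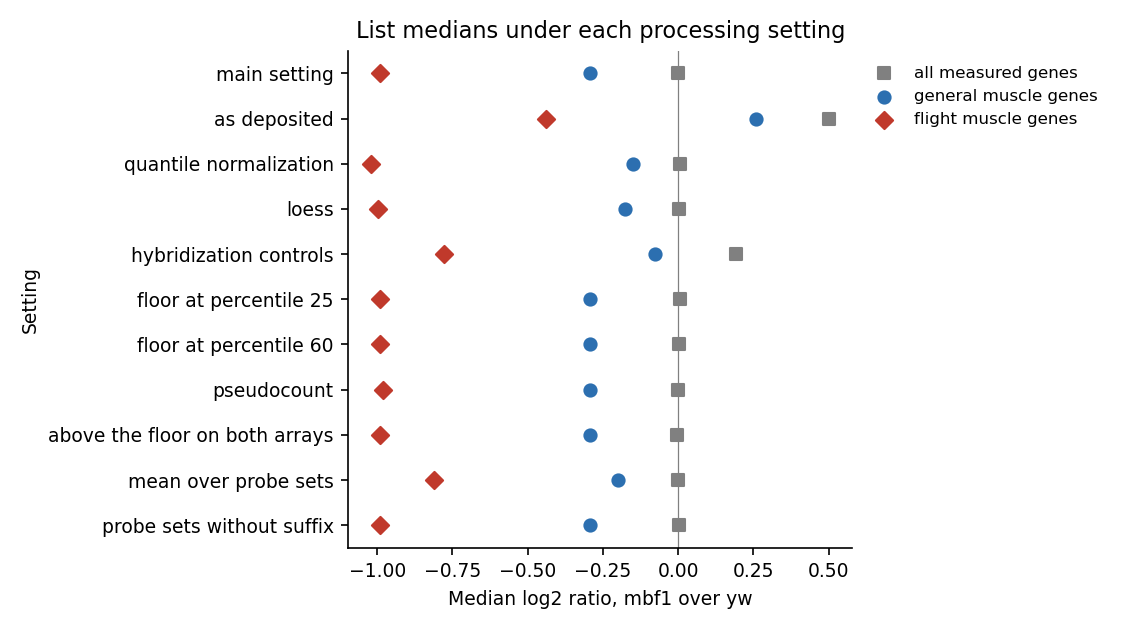
Median log2 ratio of the flight muscle genes (red diamonds), the general muscle genes (blue circles) and all measured genes (grey squares) under the main setting and 10 alternatives. In each setting the flight muscle median lies left of the general one, and both lie left of the median of all genes, although the values as deposited and those scaled on hybridization controls shift all 3 to the right.

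The order of the medians held in the main setting and in all 10 alternatives of processing. This bears mainly on quantile normalization, loess and averaging over probe sets. The values as deposited and the hybridization controls move all ratios by a constant, and the remaining settings left the member medians nearly unchanged. The flight muscle median lay between 0.81 and 1.03 below the median of all genes on the log2 scale, and the general one between 0.16 and 0.30 below it. Since all settings use the same 2 arrays, this says nothing about how the ratios would vary between samples.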

How the data were processed

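One Affymetrix DrosGenome1 array per genotype was used. The authors deposited 1 linear intensity per probe set, made with MAS5 per the submitters' processing notes, with no version or target intensity stated. The table held 0 columns beyond the 2 arrays. Experiment files with wash and scan settings were not used. GEO's platform annotation gave 1 symbol for 12443 of 14010 probe sets, several for 327 and none for 1240; no probe set with several symbols listed a member. A gene table of the Release 6 assembly served for names only, matched 12393 by gene identifier and changed 0. The sources name no genome build, and coordinates were left out.

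The mbf1 array was scaled by the median log2 ratio over probe sets that exceeded the array median in both genotypes. The floor was the 40th percentile of both arrays' scaled signals, and lower values were raised to it. A ratio with 1 array under the floor is written as at least N-fold. Python 3.11.15, pandas 2.3.3 and statsmodels 0.14.6 were used. The steps were tested on simulated data with differences larger than those of the members, so recovery at the members' sizes was not tested. The only precision available is that of 1 array per genotype, so no p-values were computed. Alternative scalings were none, quantile normalization, loess (span 0.3) and hybridization controls; the others were a pseudocount at the 10th percentile in place of the floor, floors at the 25th and 60th, a requirement to pass the floor in both genotypes, averaging over probe sets, and leaving out probe sets marked for shared sequence.

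The members, lists, thresholds and groups were chosen with earlier results of these data known. All members are named; of other lists, genes at least 1.5-fold apart, up to 6 per list, and up to 2 of highest signal in marker lists. Genes named outside this rule, such as Gpdh1, ap, salm, vg, Mst77F and trpl, were chosen after their values were seen.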

Additional observations from a re-analysis of the deposited data

How the results depend on the processing

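In the values as deposited, where all genes had a median log2 ratio of 0.50, the general muscle median turned to 0.26, the flight muscle median was -0.44, and 2 members were at least 1.5-fold and 0 at least 2-fold lower. With scaling on hybridization controls, where all genes had a median of 0.19, the medians were -0.079 and -0.78, and 1 member was at least 2-fold lower. The general median was -0.15 after quantile normalization and -0.18 after loess. With the mean over probe sets it was -0.20 and the flight muscle median -0.81. The other alternatives left the medians of the members within the spread used here, and the counts within 1.5 times. The spread was the SD of the members' ratios over the square root of their number. It is taken over genes read on the same 2 arrays, so it is no error between samples. The other floors, the requirement to pass the floor in both genotypes and leaving out marked probe sets left both medians unchanged. Of 278 ratios of single genes under the 10 alternatives, 0 of those at least 1.5-fold apart changed direction and 31 moved by more than the probe set SD of 0.38. All measured members moved in the values as deposited, where the constant shift of 0.55 exceeds that SD. The others that moved were Strn-Mlck, up and Argk1 under averaging, and several settings left nearly all ratios unchanged. Averaging probe sets took Strn-Mlck to -0.42, up to -0.0082 and Argk1 to 0.22. It also took sls to 0.35, which left 0 members at least 1.5-fold higher. The count of 6 at least 1.5-fold lower then held Obsc, at -0.64, in place of Strn-Mlck, so 2 of the 4 flight muscle genes were among them. No paired analysis was possible because each genotype had 1 array. Low signal limits Zasp67, TpnC73F, rols and sr most.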
